A study of Mus musculus with 17 samples.

Results

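The early response to interleukin-6 (IL-6) was measured in macrophages that lack SOCS3, the suppressor of cytokine signalling 3. All genes on the array were compared between 3 arrays of SOCS3-deficient cells given 10 ng/ml IL-6 for 100 min and 3 arrays of the same kind of cells left unstimulated. These 6 arrays, chosen by their labels, are among 17 in the series. The other arrays hold SOCS3-deficient cells after 400 min of IL-6 (3 arrays) and SOCS3+/+ cells left unstimulated (2 arrays) or stimulated for 100 min (3 arrays) or 400 min (3 arrays), with the same dose. SOCS3-deficient cells are called KO and SOCS3+/+ cells WT. All were mouse macrophages differentiated from bone marrow of recipient mice whose blood system had been rebuilt with fetal liver cells, from SOCS3-/- embryos for KO and from SOCS3+/+ embryos for WT. The deletion was therefore carried by the unstimulated KO controls too, and the marrow had developed in a reconstituted host. The labels number the replicates 1 to 3 without saying whether a number marks a separate culture, mouse or donor, so p-values reflect the spread among these arrays alone, and that spread may be technical.

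IL-6 binds its receptor chain IL-6R together with the shared subunit gp130, which activates JAK kinases and, through them, mainly the transcription factor STAT3. STAT3 switches on Socs3, whose product binds gp130 and damps further signalling. When SOCS3 is missing, STAT3 is known to stay active for longer after IL-6. The guanylate-binding proteins and immunity-related GTPases, the chemokine Cxcl10 and the transcription factor Irf1 are best known as genes that interferons induce. The comparison asks which genes IL-6 turns on or off early when this brake is missing.

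Socs3, the deleted gene, has 2 probe sets, and levels are given here for the first only. On the first, its level, a normalized intensity, was 20.59, 23.55 and 16.52 on the unstimulated KO arrays of replicates 1, 2 and 3, and 66.78, 86.22 and 179.5 on the KO arrays at 100 min. In WT cells it was 114.7 and 54.91 unstimulated and 2552, 1809 and 432.4 at 100 min. All 6 KO levels thus lay below every WT level at 100 min, and 5 of the 6 lay below the higher of the unstimulated WT arrays. The KO groups did not overlap each other, and the KO change of 2.17 on the log2 scale (SE 0.89) was not called (limma, adjusted p = 0.672). Which part of the gene was deleted, and whether the probes lie in it, is not given in the labels.

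Levels of 17 macrophage marker genes were examined, of which 16 were tested and 0 were called. A call tells of a change with IL-6 and not of identity. Over all genes 0.595% rose and 0.0425% fell, so 0 calls in a short list are uninformative. Cd14, a co-receptor for lipopolysaccharide, Lyz2, a lysozyme, and Csf1r, the receptor of the macrophage growth factor CSF-1, gave intensities of at least 18110, 24110 and 14180 on the 6 KO arrays. The scavenger receptor Marco, at 11.69 to 103.3, was the marker too dim to be tested. The T cell receptor chains Cd3d, Cd3e and Cd3g, at most 134.2 on those arrays, were among the 7 of 16 T and NK cell markers too dim to be tested. Of the 9 tested, 0 were called on their brightest probe set, and Cd4 lay at 150.2 to 584 on the KO arrays. Of 12 B cell markers, Ighm, the heavy chain of IgM, lay at 748.9 to 3301 unstimulated and 744.6 to 1976 after IL-6, and 0 of the 11 tested were called. Markers in the lists of still other cell types were not all dim. On the 6 KO arrays Csf3r, listed for neutrophils, lay at 493.7 to 1403, and Col1a2, listed for fibroblasts, at 685.2 to 1315. Replicate 3 stood apart from the others. On the first principal component of all 17 arrays (12.7% of the variance) the KO arrays of replicate 3 lay at 45.21 unstimulated and 30.49 at 100 min, while those of replicates 1 and 2 lay between -13.86 and 2.27. In replicate 3 the summed intensity of 38 cell cycle genes was 80670 and 77480, against 40920 to 47040 on the other KO arrays, and that of the macrophage markers was 188800 and 180700, against 222900 to 255200. The part of these differences in the results below was not tested, and the counts are also given with replicate 3 treated as a batch.

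At an adjusted p under 0.05 few probe sets were called between KO cells at 100 min and unstimulated KO cells, and nearly all of these rose. No array in the series was of cells kept for 100 min without IL-6. Time and handling therefore cannot be told apart from IL-6. Of 9871 probe sets tested, 57 (0.577%) were called at an adjusted p under 0.05, with 53 that rose (0.537%) and 4 that fell (0.0405%). Of the 53, 48 carried a single gene symbol and belonged to 46 genes; of the 4, 3 did. All 53 rose at least 2-fold, 33 at least 4-fold, 16 at least 8-fold and 7 at least 16-fold, with a median log2 change of 2.28. The set held chemokines, interferon-inducible GTPases, the interferon regulatory factor Irf1, receptors for other cytokines, and regulators of signalling and RNA decay. At an unadjusted p under 0.05, 609 probe sets (6.17%) passed, 361 higher and 248 lower. In every called probe set the 3 arrays at 100 min lay beyond the 3 unstimulated arrays, which was so for 561 (5.68%) of all tested on the higher side and 559 (5.66%) on the lower. The test shared one estimate of the spread among all 6 groups of the series (residual degrees of freedom 11). When only the 6 KO arrays entered the fit (residual degrees of freedom 4), 0 probe sets were called, the lowest adjusted p was 0.0687 and 643 passed an unadjusted p under 0.05.

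**Figure D1:**
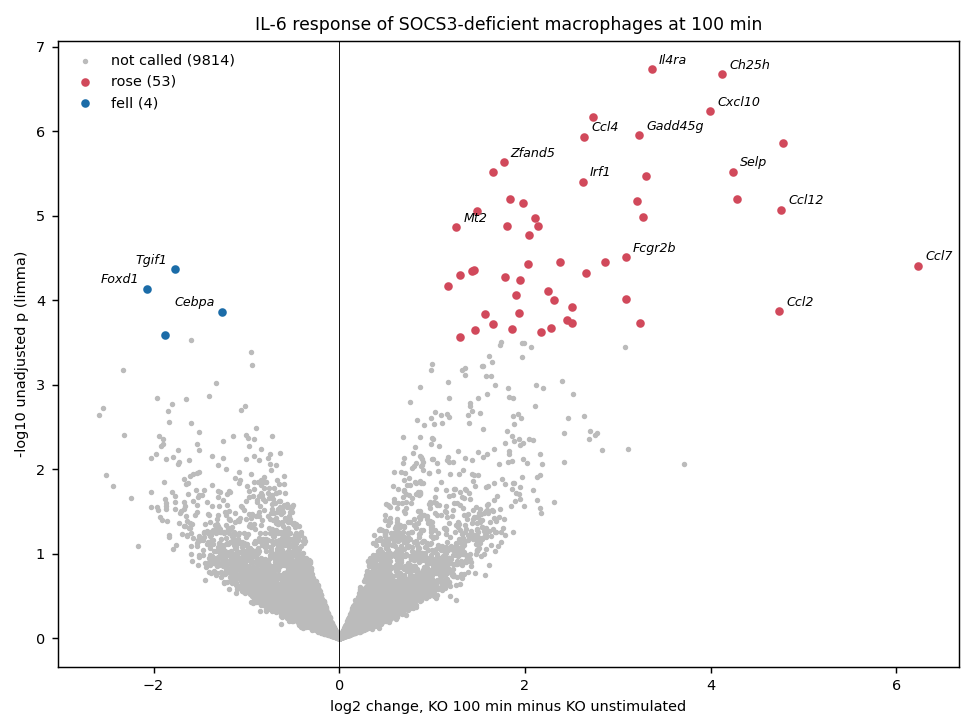
Each point is 1 of the 9871 probe sets tested, with the log2 change (KO 100 min minus KO unstimulated) on the horizontal axis and −log10 of the unadjusted limma p on the vertical axis. The 53 that rose are red and the 4 that fell blue; Ccl7 lies farthest to the right, at 6.24.

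Among probe sets with a single symbol, the 3 with the largest rises were those of Ccl7, Ccl12 and Ccl2, chemokines that attract monocytes. A probe set without a single symbol rose by 4.78, between Ccl7 and Ccl12. Ccl7 lay at 100.1, 115.6 and 9.132 unstimulated and at 9402, 7265 and 1604 after IL-6, for replicates 1, 2 and 3. Its log2 change was 6.24 (SE 1.05, adjusted p = 0.0134), or 75.5-fold; 1 unstimulated array was under the floor of 22.01 that was set before taking logs, so the fold understates the difference. Every stimulated array was far above every unstimulated one, and replicate 3 was the lowest in both groups. Ccl2, the main ligand of the monocyte receptor Ccr2, went from 444.9, 352.1 and 367.6 to 14180, 12790 and 6002, a log2 change of 4.74 (SE 0.90, adjusted p = 0.0301). Ccl12, a close mouse relative of Ccl2, went from 25.65, 16.89 and 48.12 to 1164, 1096 and 421.1, a log2 change of 4.76 (SE 0.69, adjusted p = 0.00482). In both, replicates 1 and 2 were alike after IL-6 and replicate 3 was lower, still above all unstimulated arrays.

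Ccl4, an inflammatory chemokine, rose evenly, from 279.6, 358.4 and 299.5 to 1868, 2130 and 1832, a log2 change of 2.64 (SE 0.32, adjusted p = 0.00193). Cxcl10, a ligand of Cxcr3 induced by interferons, went from 78.67, 139.9 and 238.2 to 1799, 1678 and 3539, a log2 change of 3.998 (SE 0.46, adjusted p = 0.00169). Here replicate 3 was the highest array in both groups, and the groups did not overlap. Of 20 chemokines tested these 5 rose (25%, against 0.595% of 7063 genes, each taken by its brightest probe set) and 0 fell (against 0.0425%). The members of this and the other gene lists were chosen with earlier results of these data known, so list counts are no independent evidence. The list's median log2 change was 0.70, against -0.04 over all genes. Their median within replicates 1, 2 and 3 was 1.19, 1.04 and 0.29. Cxcl9 and Ccl8, at 2.17 and 1.63, were not called. The receptor Ccr1, which binds Ccl7 among others, went from 326.6, 343.7 and 341.9 to 2667, 2259 and 1051, a log2 change of 2.46 (adjusted p = 0.0358). Ccl12, Ccl4 and Cxcl10 kept their call in each of 17 fits that left out 1 array. Ccl7 lost it without the KO 100 min array of replicate 1 or 2 or the unstimulated KO array of replicate 3 (adjusted p up to 0.0921), Ccl2 without any of the 5 KO arrays other than that of replicate 3 at 100 min (up to 0.172). Ccr1 lost it without any of these 5, either unstimulated WT array or the KO array of replicate 1 or 2 at 400 min (up to 0.207). Ccl2, Ccl7 and Ccl12 are similar in sequence, and cross-hybridization between them was not tested.

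**Figure D2:**
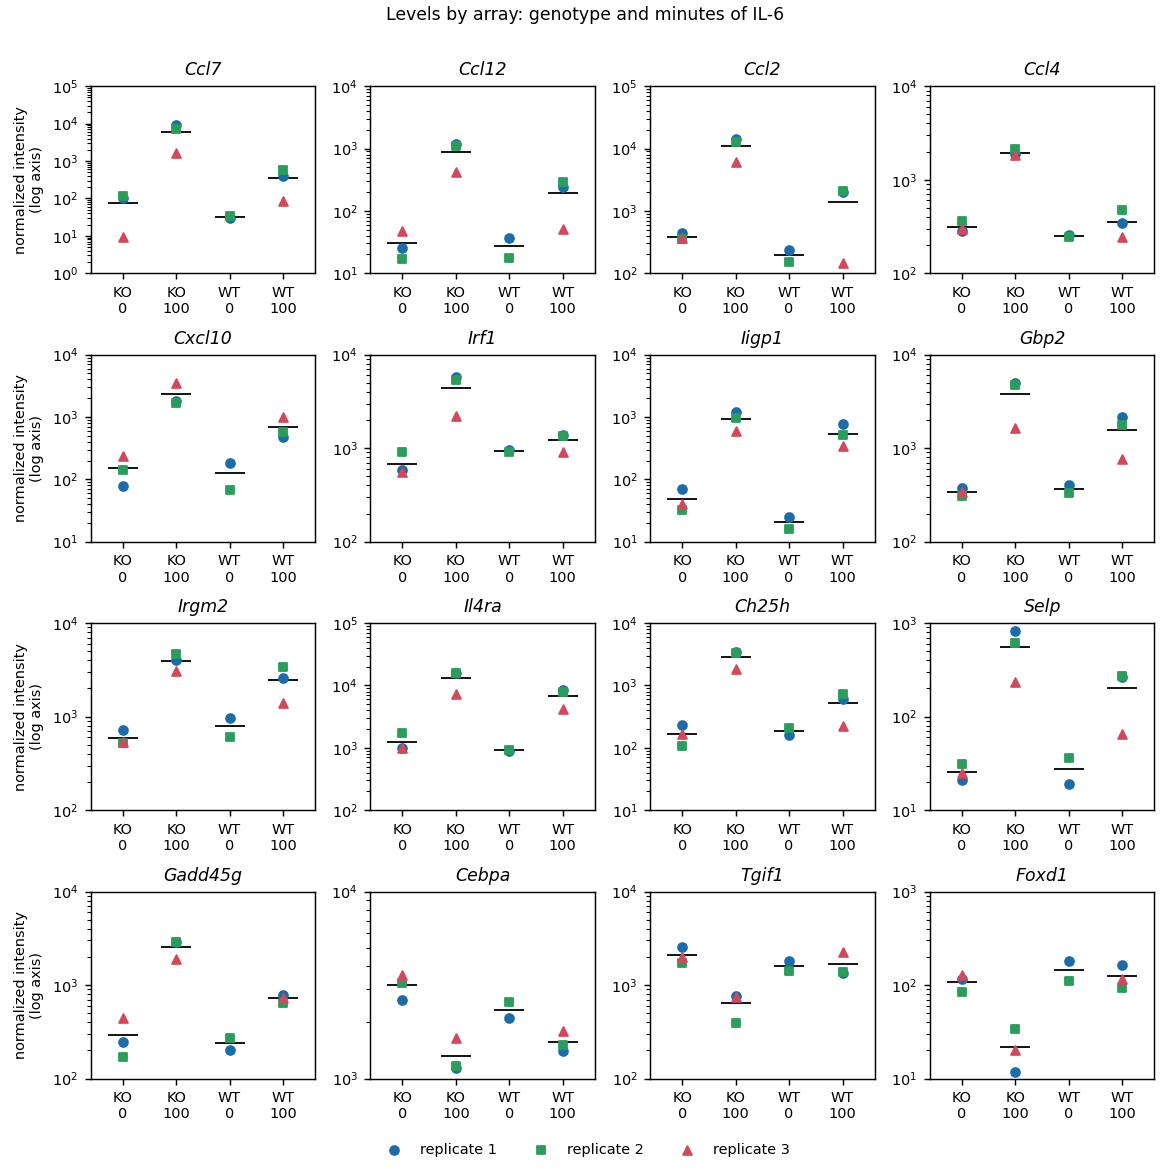
Normalized intensity on a log axis for 16 called genes on each array of KO and WT cells, unstimulated and after 100 min of IL-6; bars are group means and symbols mark the replicate number. In KO cells the stimulated arrays of each gene lie wholly above (13 genes) or below (Cebpa, Tgif1, Foxd1) the unstimulated arrays.

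Nearly all interferon-inducible GTPases on the array rose. These are the guanylate-binding proteins (Gbp genes) and the immunity-related GTPases (Irgm1, Irgm2, Igtp, Iigp1, Ifi47), which act on membranes around intracellular pathogens. Of 9 genes tested 8 rose (88.9%, against 0.595% of all genes), with a list median of 3.21. This list too was chosen with earlier results of these data known, so its count is no independent evidence. Iigp1 went from 70.55, 32.75 and 40.45 to 1199, 959.4 and 600.3, a log2 change of 4.28 (SE 0.60, adjusted p = 0.00436), and rose by 3.24 (adjusted p = 0.0371) on its other probe set. Gbp2 went from 378.1, 304.6 and 342.9 to 4992, 4688 and 1634, a log2 change of 3.31 (SE 0.44, adjusted p = 0.00305). Irgm2 went from 711.1, 516.2 and 533.7 to 4080, 4643 and 3062, a log2 change of 2.74 (SE 0.32, adjusted p = 0.00169). In each, replicate 3 was the lowest after IL-6 without reaching the unstimulated range.

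Gbp7 and Gbp3 had log2 changes of 3.27 (adjusted p = 0.00533) and 3.21 (adjusted p = 0.00436), and Ifi47, Igtp and Irgm1 of 3.09 (adjusted p = 0.0231), 2.87 (adjusted p = 0.0131) and 2.14 (adjusted p = 0.00585). The ninth gene, Gbp2b, was not called: it lay at 153.6, 140.4 and 14.77 unstimulated and at 2829, 2521 and 150.4 after IL-6. Its groups overlapped, replicate 3 was far lower in both, and its log2 change of 3.71 had an adjusted p of 0.397. With replicate 3 as a batch term Gbp2b was called (adjusted p = 0.00847). The median change of the 9 genes within replicates 1, 2 and 3 was 3.45, 3.70 and 2.55. Gbp2, Gbp3, Gbp7, Irgm1, Irgm2 and the first probe set of Iigp1 kept their call in each of the 17 fits that left out 1 array. Igtp lost it without the KO array of replicate 1 or 2 at 100 min or the unstimulated KO array of replicate 3 (adjusted p up to 0.0824), and Ifi47 without any of the 5 KO arrays other than that of replicate 3 at 100 min (up to 0.157). The other probe set of Iigp1 lost it in 9 fits (up to 0.207): without any KO array of these groups except the unstimulated one of replicate 3, either unstimulated WT array, or the KO array of replicate 1 or 2 at 400 min. Members of these families are similar in sequence, and how far a probe set reads its relatives was not tested.

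The promoters of the genes that rose were searched, close to the start of the gene, for the letters that STAT dimers and interferon regulatory factors are known to bind. RefSeq promoter sequences of GRCm38.p6 were found for 37 of the 46 genes that rose. The 250 bases before each start were searched on both strands for TTCNNNGAA, the core of a STAT site, and for GAAA followed after any 2 bases by GAAA, the core of an interferon-stimulated response element, called the interferon pattern here. Matches of the 2 patterns may overlap. TTCNNNGAA occurred in 7 of the 37 genes (18.9%), against 8.13% of 27025 genes in the table. The interferon pattern occurred in 7 (18.9%), against 3.46%. Of the 3 named genes that fell, 1 held TTCNNNGAA (33.3%), Tgif1, and 0 held the interferon pattern. Only 11 of the 37 held either pattern. Among the 7 GTPase genes that rose and were found, 6 held the interferon pattern and 3 held TTCNNNGAA. Cxcl10 was the only other gene with the interferon pattern, so its share among the 37 rests on the GTPase genes. Windows of 6 of these 11 genes follow, picked because they hold a match. They are read 5′ to 3′ along the gene's own strand, with matches to either pattern on either strand in capitals.
Irf1, chr11:53769899-53769957, plus strand: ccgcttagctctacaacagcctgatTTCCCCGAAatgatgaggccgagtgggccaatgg
Igtp, chr11:58199486-58199555, plus strand: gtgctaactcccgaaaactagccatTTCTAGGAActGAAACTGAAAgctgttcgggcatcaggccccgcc
Irgm2, chr11:58214877-58214947, plus strand: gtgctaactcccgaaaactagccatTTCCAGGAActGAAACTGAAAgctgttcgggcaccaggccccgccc
Gbp7, chr3:142530205-142530317, plus strand: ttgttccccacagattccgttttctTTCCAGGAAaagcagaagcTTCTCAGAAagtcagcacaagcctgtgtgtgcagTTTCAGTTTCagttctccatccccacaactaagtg
Gbp2, chr3:142620579-142620638, plus strand: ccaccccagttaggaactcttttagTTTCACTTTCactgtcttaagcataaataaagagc
Cxcl10, chr5:92349068-92349127, minus strand: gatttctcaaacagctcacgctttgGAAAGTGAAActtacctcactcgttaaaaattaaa
In Igtp and Irgm2 the patterns stand 2 bases apart. In Irf1 only the STAT pattern was found, in Gbp2 and Cxcl10 only the interferon pattern, and in Gbp7 both. The stricter palindrome TTCCNGGAA, a subset of TTCNNNGAA, occurred in 2 of the 37 (5.41%), against 1.09%. The AP-1 pattern TGANTCA occurred in 5 (13.5%), against 7.82%. A match describes the letters of the window and is no measurement of binding. Genes of one family share promoter sequence, so they are not separate instances.

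Irf1, Plscr1 and Tap1 rose among the other interferon genes. Irf1, a transcription factor induced by interferons, went from 586.3, 902.9 and 553.2 to 5767, 5352 and 2228, a log2 change of 2.63 (SE 0.35, adjusted p = 0.00326). It was the 1 of 7 interferon regulatory factors tested that rose (14.3%, against 0.595% of all genes). Irf8, Irf9, Irf7, Irf4, Irf3 and Irf5 had values of 0.99, 0.49, 0.28, 0.07, -0.36 and -0.50 and were not called. Of 28 type I interferon-stimulated genes, 1 rose (3.57%, against 0.595% of all genes), Plscr1, a phospholipid scramblase with antiviral activity. It went from 339.6, 403.2 and 465.2 to 2082, 1909 and 928.5, a log2 change of 1.95 (adjusted p = 0.0158). At an unadjusted p under 0.05, 15 of the 28 were higher and 0 lower, against 286 higher and 188 lower of all 7063 genes. The list's median was 1.09. Its median within replicates 1, 2 and 3 was 1.41, 1.01 and 0.69.

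Ifit1, an RNA-binding antiviral protein, was not called. It lay at 677.3, 638.7 and 203.4 unstimulated and at 5289, 5528 and 1092 after IL-6, a log2 change of 2.83 (adjusted p = 0.350). The groups did not overlap, but the array of replicate 3 was lower than the others in both. The summed intensity of the 28 genes was 29670, 30770 and 21720 unstimulated and 68790, 62260 and 33630 after IL-6. With replicate 3 as a batch term Ifit1, Ifit2, Rsad2, Isg15, Usp18 and Trim30a were called as well (adjusted p = 0.00855, 0.0483, 0.0273, 0.0122, 0.0172 and 0.00751). Of 12 genes for peptide transport and MHC class I, 1 rose (8.33%, against 0.595% of all genes), Tap1, a subunit of the peptide transporter. It went from 895.1, 984.2 and 1268 to 2759, 2694 and 2231 (log2 change 1.30, adjusted p = 0.0145). Its other probe set gave -1.06 and was not called. Of 13 genes of MHC class II and costimulation 0 were called, and 0 passed an unadjusted p under 0.05. Irf1 kept its call in all 17 fits that left out 1 array, while Plscr1 and Tap1 lost it without the KO array of replicate 1 or 2 at either time (adjusted p up to 0.117 and 0.0961).

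**Figure D3:**
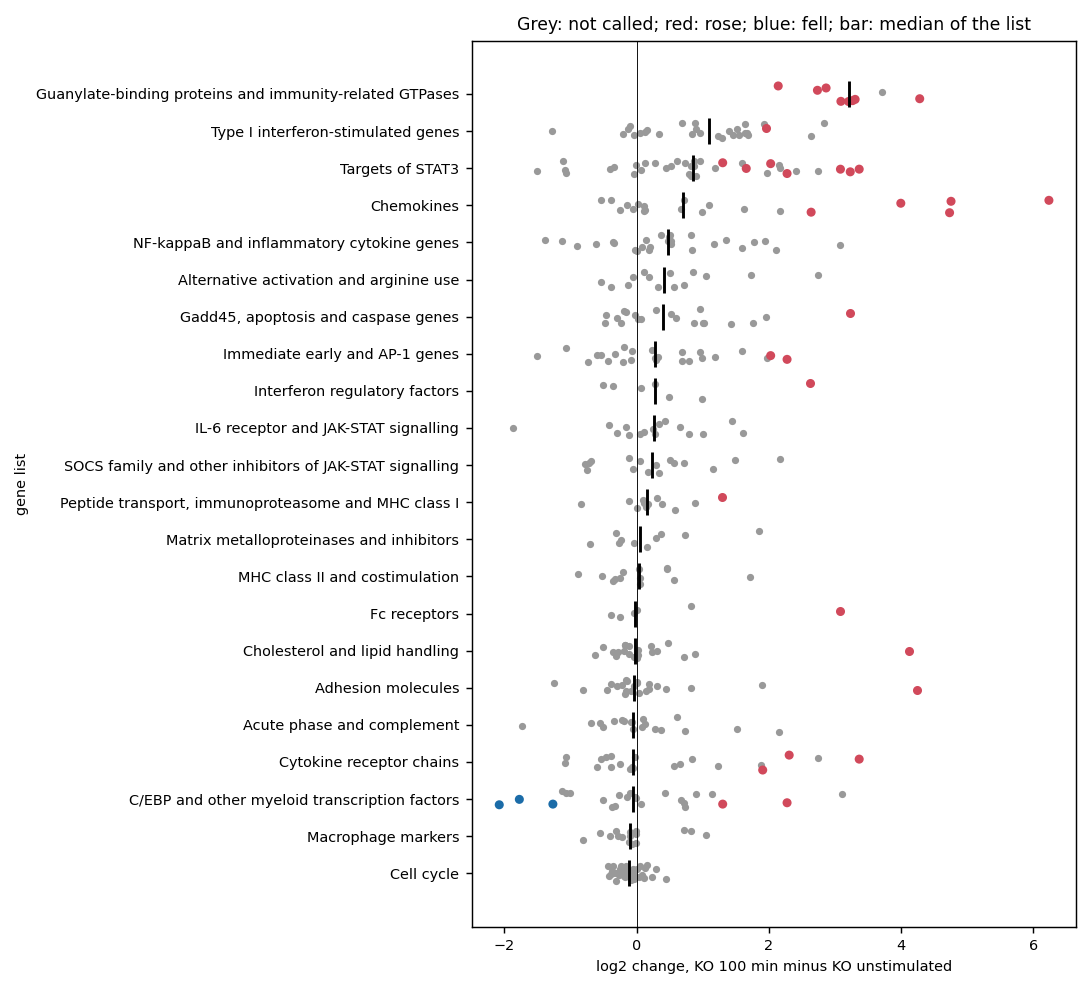
Each point is a tested gene of a list, at the log2 change of its brightest probe set (KO 100 min minus KO unstimulated); grey points were not called, red rose, blue fell, and the bar is the list's median. The GTPase list lies farthest to the right (median 3.21), while cell cycle genes (-0.12) and macrophage markers (-0.10) lie near 0.

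Of 16 genes of IL-6 receptor and JAK-STAT signalling, 0 were called (limma), and the median was 0.27. At an unadjusted p under 0.05, 3 were higher and 1 lower, against 286 and 188 of all 7063 genes. Stat3 itself went from 1907, 2019 and 1438 to 3149, 3476 and 2662 on the first of a pair of probe sets. The groups did not overlap on either, but the log2 changes of 0.80 and 1.03 had adjusted p-values of 0.365 and 0.195. The gp130 gene Il6st had 0.66 and 0.24, the receptor chain Il6ra -0.41, and the kinases Jak1, Jak2 and Tyk2 0.28, 1.45 and -1.87. The adaptor Gab1, at 1.61 (adjusted p = 0.0679), was called with replicate 3 as a batch term (adjusted p = 0.0442).

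Among 16 inhibitors of the pathway 0 were called (3 higher and 1 lower at an unadjusted p under 0.05, against 286 and 188 of all 7063 genes). Socs1, the closest relative in function of Socs3 and a direct inhibitor of JAK kinases, lay at 257.9, 318.9 and 283.2 unstimulated and at 573.5, 1169 and 771.3 after IL-6. Every stimulated array was above every unstimulated one, and the log2 change of 1.49 had an adjusted p of 0.362. On the WT arrays at 100 min Socs1 lay at 214.9, 255.4 and 59.69. The phosphatase Ptpn1 had 1.16 (adjusted p = 0.1999) and the adaptor Sh2b3 -0.74 (adjusted p = 0.398).

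Of 36 known targets of STAT3 tested, 7 rose and 0 fell (19.4%, against 0.595% of all genes), with a median of 0.85. They were Pim1, Zfp36, Cebpd, Myc, Gadd45g, Il4ra and Fcgr2b, and an eighth target, Nfil3, rose on the dimmer of its probe sets. As with the other lists, the targets were chosen with earlier results of these data known, and their count is no independent evidence. Pim1, a kinase that promotes survival, went from 1464, 1247 and 1220 to 4404, 4080 and 3910, a log2 change of 1.66 (SE 0.22, adjusted p = 0.00299). Its 3 replicates lay close together in both groups. Zfp36, which encodes tristetraprolin and speeds the decay of cytokine mRNAs, went from 1855, 1991 and 1269 to 7727, 6663 and 6186, a log2 change of 2.03 (adjusted p = 0.0131). Pim1 kept its call in all 17 fits that left out 1 array, and Zfp36 lost it without the KO array of replicate 1 or 2 at 100 min or the unstimulated KO array of replicate 3 (adjusted p up to 0.0824). Cebpd, a C/EBP factor of the acute phase, went from 850.7, 772.3 and 703.2 to 1796, 1757 and 2201 (log2 change 1.30, adjusted p = 0.0468). The call of Cebpd held in 3 of the 17 fits, those without a WT array of replicate 3 or the WT array of replicate 1 at 400 min, and was lost in the other 14 (adjusted p up to 0.181). It was also lost on the deposited values without quantile normalization, without the filter on dim probe sets and with only replicates 1 and 2. Myc, dim at 28.51, 7.612 and 15.18 unstimulated and 117.1, 141 and 95.22 after IL-6, had a log2 change of 2.28 (adjusted p = 0.0403). Its call held in the 6 fits without a WT array at 100 or 400 min and was lost without any other array (adjusted p up to 0.190). It was also lost with the floor at the 1st percentile, without the filter and with a trended, robust estimate of the spread, and 2 of its unstimulated arrays were under the floor.

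Il4ra, the receptor chain shared by IL-4 and IL-13, was among the clearest rises. It went from 980.8, 1713 and 988.9 to 15780, 15630 and 7421, a log2 change of 3.37 (SE 0.35, adjusted p = 0.00105), or 10.3-fold. A dim second probe set (7.553 to 169.4 over the 6 KO arrays) gave -1.46 and was not called, with overlapping groups. Il13ra1, the partner chain for IL-13, went from 35.17, 89.21 and 37.14 to 275.9, 225 and 228.5, a log2 change of 2.31 (adjusted p = 0.0231). Il17ra, the receptor of IL-17A, went from 387.8, 527.1 and 720.1 to 2230, 2436 and 1435, a log2 change of 1.91 (adjusted p = 0.0217), with 1.40 (not called) on its other probe set. These 3 were the members called of 21 cytokine receptor chains (14.3%, against 0.595% of all genes), and the list's median was -0.06. Fcgr2b, the inhibitory Fc receptor, was the 1 of 6 Fc receptors called (16.7%, against 0.595% of all genes). It went from 240.4, 199.5 and 657.9 to 3090, 2211 and 2820 (log2 change 3.08, adjusted p = 0.0123). Il4ra kept its call in all 17 fits that left out 1 array; Fcgr2b lost it without the KO array of replicate 1 at either time or the unstimulated KO array of replicate 2 (adjusted p up to 0.0730). Il17ra lost it without the KO array of replicate 1 or 2 at either time (up to 0.131), and Il13ra1 without any of the 6 KO arrays but the unstimulated one of replicate 2 (up to 0.138). Il13ra1 also lost it with only replicates 1 and 2.

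Among enzymes and surface proteins, Ch25h and Selp stood out by size. Ch25h makes 25-hydroxycholesterol, an oxysterol with antiviral effects. It went from 233.9, 106.2 and 163.9 to 3502, 3348 and 1850, a log2 change of 4.13 (SE 0.43, adjusted p = 0.00105), or 17.5-fold. It was the 1 of 22 cholesterol and lipid genes called (4.55%, against 0.595% of all genes), and the list's median was -0.02. Selp, the adhesion molecule P-selectin, went from 21.2, 31.16 and 25.11 to 818.1, 607.9 and 233.3, a log2 change of 4.24 (SE 0.56, adjusted p = 0.00299). All unstimulated arrays were near the floor and all stimulated ones well above it. P-selectin is best known from platelets and endothelium. The summed intensity of 13 markers of erythroid cells and megakaryocytes was 2573 to 4120 unstimulated and 2764 to 3746 after IL-6; endothelial markers were not examined, and the part of other cells in the rise was not tested. Both genes kept their call in all 17 fits that left out 1 array.

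Gadd45g was the 1 of 20 Gadd45, apoptosis and caspase genes tested that rose (5%, against 0.595% of all genes), and 0 fell. This stress protein, which can halt the cell cycle, went from 248.3, 172.1 and 448.1 to 2868, 2894 and 1919, a log2 change of 3.23 (SE 0.39, adjusted p = 0.00193). Cdkn2d, an inhibitor of the kinases CDK4 and CDK6, went from 989.4, 1048 and 1846 to 3878, 4545 and 4992 (log2 change 1.84, adjusted p = 0.00436). Both rose in every replicate and kept their call in all 17 fits. Of 36 tested cell cycle genes 0 were called, with 0 at an unadjusted p under 0.05 and a median of -0.12. Mt2, a metallothionein that binds metals and is a textbook IL-6 target, went from 2951, 3253 and 4114 to 8581, 7512 and 8382 (log2 change 1.26, adjusted p = 0.00585). Ndrg1, a stress-responsive gene, rose on both probe sets, by 1.98 (adjusted p = 0.00436) and 2.04 (adjusted p = 0.00698). Mt2 and the first probe set of Ndrg1 kept their call in all 17 fits, and the other lost it without the KO array of replicate 1 or 2 at 100 min (adjusted p up to 0.0578).

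Zfand5, a zinc finger protein that binds ubiquitin, went from 1666, 1533 and 1375 to 5023, 6440 and 4302 (log2 change 1.77, adjusted p = 0.00288). Zfp281, a transcription factor, Mcoln2, a lysosomal ion channel, and Susd6 had log2 changes of 2.11, 1.81 and 1.48 (adjusted p = 0.00533, 0.00585 and 0.00482). All 4 kept their call in each of the 17 fits. Nfil3, a basic leucine zipper repressor, rose by 2.51 (adjusted p = 0.0274) on one probe set, while the other gave 0.87 and was not called. Noct, a deadenylase-like enzyme under circadian control, and Dab2, an endocytic adaptor, rose by 1.79 (adjusted p = 0.0150) and 1.46 (adjusted p = 0.0139) on 1 of 3 probe sets each. Agfg1 rose by 1.94 (adjusted p = 0.0303) on 1 of 3. Hivep2, Ugcg, Map3k8, Rnf19b, Nampt and B4galt3 rose by 2.25, 2.18, 1.66, 1.57, 1.46 and 1.17. Their calls held in 13, 6, 4, 11, 5 and 12 of the 17 fits (adjusted p up to 0.120, 0.190, 0.178, 0.189, 0.240 and 0.127), and those of Nfil3, Noct, Dab2 and Agfg1 in 12, 13, 13 and 11 (up to 0.170, 0.0945, 0.0910 and 0.189). All 10 were lost without the KO array of replicate 1 at either time or that of replicate 2 at 100 min, and all but Hivep2 without the unstimulated one of replicate 2. Ugcg, Map3k8 and Nampt also lost theirs without the filter on dim probe sets, and Nampt on the deposited values without quantile normalization.

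Cd247, the zeta chain of the T cell receptor, was called on the dimmer of its probe sets. It went from 13.66, 46.74 and 14.94 to 249.7, 105.3 and 122.3 (log2 change 2.38, adjusted p = 0.0131), with 2 unstimulated arrays under the floor. The brighter probe set overlapped between the groups, at 69.08 to 186.8 unstimulated and 79.34 to 167.6 after IL-6 (log2 change -0.03, not called). The summed intensity of 16 T and NK cell markers was 1021 to 1773 unstimulated and 1012 to 1244 after IL-6. The call was lost without the KO array of replicate 1 at either time or the unstimulated KO array of replicate 3 (adjusted p up to 0.0730), with only replicates 1 and 2, and with a trended, robust estimate of the spread.

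The 3 named genes that fell all encode transcription factors. Cebpa, the C/EBP factor that drives myeloid differentiation, went from 2623, 3230 and 3596 to 1142, 1163 and 1652, a log2 change of -1.26 (SE 0.24, adjusted p = 0.0301). Tgif1, a homeobox repressor of TGF-beta signalling, went from 2572, 1736 and 2016 to 773.4, 395.6 and 738.5, a log2 change of -1.77 (SE 0.30, adjusted p = 0.0139). Foxd1, a forkhead factor, went from 115.1, 83.82 and 128.4 to 11.71, 34.11 and 20.09, a log2 change of -2.08 (SE 0.37, adjusted p = 0.0190), with 2 stimulated arrays under the floor. In each the groups were apart on all 3 replicates. Of 24 genes tested in a list of C/EBP and other transcription factors, these 3 fell and 2 rose, Cebpd and Myc, against 0.0425% and 0.595% of all genes. Not all members are particular to myeloid cells, and the list's median was -0.06. The list was chosen with earlier results of these data known, and its count is no independent evidence. Tgif1 lost its call without the unstimulated KO array of replicate 1 or 3 or the array at 100 min of replicate 2 (adjusted p up to 0.0791), and Foxd1 without the KO array of replicate 1 or 3 at either time (up to 0.121). Cebpa lost it without any of the 5 KO arrays other than that of replicate 3 at 100 min, or without the KO array of replicate 1 at 400 min (up to 0.182). Foxd1 also lost it with the floor at the 20th percentile, with only replicates 1 and 2 and with the trended, robust estimate.

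Several lists had few or no calls. Of 27 genes of NF-kappaB and inflammatory cytokines 0 were called (8 higher and 1 lower at an unadjusted p under 0.05, against 286 and 188 of all 7063 genes; median 0.47). Of 25 immediate early genes 2 rose (8%, against 0.595% of all genes), Zfp36 and Myc. Jun, at 1.97 (adjusted p = 0.0525), was called with replicate 3 as a batch term (adjusted p = 0.00115). Acute phase and complement genes (19), alternative activation genes (14) and matrix metalloproteinases (10) had 0 calls each, with 2, 2 and 1 higher and 1, 0 and 0 lower at an unadjusted p under 0.05. Among probe sets with a single symbol that were not called, differences at the extremes were Gbp2b at 3.71, Id1 at 3.12, Cd83 at 3.08, Cxcr4 at -2.51 and Azgp1 at -2.44.

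The response was then compared replicate by replicate, since replicate 3 stood apart. Since the groups of all 57 called probe sets did not overlap, the direction within each number was fixed, and only the sizes are compared. The median log2 change of the 53 was 2.62, 2.24 and 2.01 in replicates 1, 2 and 3, against -0.05, -0.03 and -0.01 over all tested. The change was the smallest of the 3 in replicate 3 for 33 of the 53 and the largest for 5. After IL-6 the lowest KO array was that of replicate 3 for 43 of the 53, as with Ccl2, Gbp2, Irf1 and Il4ra. In Cxcl10, Cebpd and Cdkn2d it was the highest. The shares over all probe sets tested are not given for these counts. A weaker response in replicate 3 therefore cannot be told apart from a general shift of its arrays. With replicate 3 against the other replicates as a batch term, 94 probe sets were called, 84 higher and 10 lower, and all 57 were among them. Among the additions were Gbp2b, Ifit1, Ifit2, Rsad2, Isg15, Usp18, Trim30a, Fgl2, Jun, Gab1 and Ier3 on the higher side and Sgk1 and Cxcr4 on the lower.

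With only replicates 1 and 2 of every group, 117 were called (96 higher, 21 lower), including 42 of the 57. The calls lost there were those of Agfg1, B4galt3, Cd247, Cebpd, Foxd1, Hivep2, Il13ra1, Map3k8, Myc, Nampt and Ugcg and of 4 probe sets without a single symbol. The Gbp and Irg genes, the 5 chemokines, Irf1, Il4ra, Ch25h and Selp kept theirs. Leaving out single KO arrays moved the count too. It was 31, 34 and 34 without the unstimulated array of replicate 1, 2 or 3, and 24, 27 and 74 without the array at 100 min of replicate 1, 2 or 3. Over all 17 such fits, 23 of the 57 were called every time, 22 of them on probe sets with a single symbol.

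**Figure D4:**
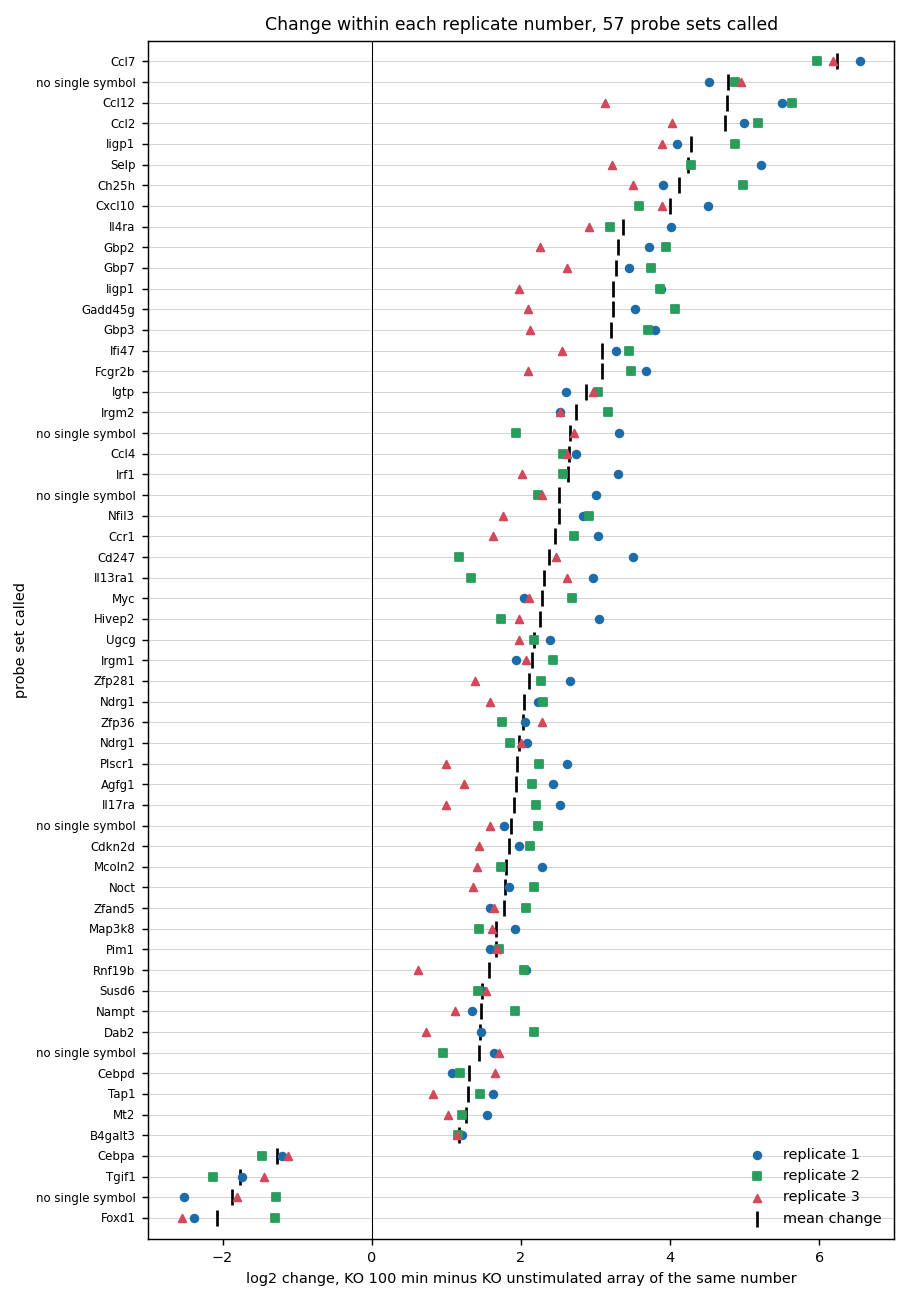
For each of the 57 called probe sets, the log2 change between the KO arrays of the same number (100 min minus unstimulated; circles, squares and triangles for replicates 1, 2 and 3) and the mean change (black tick). All changes have one sign within a row, and triangles are the smallest for 33 of the 53 that rose.

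The response of WT cells treated the same way was set beside that of KO cells. In WT cells 1 probe set of 9871 was called at 100 min (0.0101%), that of Il4ra, with 2 arrays in the unstimulated group. Those 2 were of replicates 1 and 2, while the WT arrays at 100 min included replicate 3. For the 53 probe sets that rose in KO cells, the median WT log2 change was 1.09, and 51 of the 53 had a WT change above 0. The WT array of replicate 3, at 58.08 on the first principal component, was the lowest at 100 min for 32 of the 53. The part of this imbalance in the WT changes and in the difference of the responses was not tested. The KO change was the larger for 51 of 53, but these were chosen by their KO change, and the test of the difference of the responses called 0 of 9871 probe sets (0%; limma, 361 at an unadjusted p under 0.05, or 3.66%). Of the 53, 23 had an unadjusted p under 0.05 for that difference. That count has the same limit, since the difference contains the KO change. Iigp1 was the exception on both probe sets, with 4.45 in WT and 4.28 in KO on the first, and Fcgr2b had 2.95 and 3.08. Irf1 had 0.35 in WT and 2.63 in KO, a difference of responses of 2.28 (adjusted p = 0.787). Ch25h had 1.31 and 4.13, a difference of 2.82 (adjusted p = 0.787). The 5 genes with the smallest p for the difference were Cd247 at 4.09 (adjusted p = 0.0863), and Jun, Ccl4, Mrpl14 and Ubxn11 at 2.90, 2.18, -2.39 and -2.01 (adjusted p = 0.787 each). For the 9 GTPases the median was 1.98 in WT and 3.21 in KO; for the 28 type I interferon-stimulated genes it was 0.21 and 1.09.

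The levels at 100 min were also compared directly. KO and WT cells differed on 4 probe sets (0.0405%). A probe set without a single symbol was lower in KO cells, with a log2 difference of -3.90 (adjusted p = 1.56e-04), and its difference between unstimulated cells was -2.59 (not called, adjusted p = 0.0718). Ccl4 was higher in KO cells by 2.50 on the log2 scale (adjusted p = 0.0110), with WT arrays at 348.7, 476.3 and 244. Cd247 was higher by 2.75 on its dimmer probe set (adjusted p = 0.0268), and the WT arrays were at 16.11, 11.19 and 19.14, all under the floor. Rabgap1l was higher by 2.31 (adjusted p = 0.0362), and its difference between unstimulated cells was 1.83 (not called, adjusted p = 0.369). Between unstimulated KO and WT cells 0 were called (limma, 0%). All 3 KO arrays at 100 min lay above all 3 WT arrays for 31 of the 53, against 414 (4.19%) of all tested. For unstimulated cells all KO arrays lay above both WT arrays for 8 of the 53, against 11.6% of all tested. The 53 were chosen by these same KO arrays, so neither count is independent evidence of a genotype difference. The genotypes also differed in some of the sex-linked genes. The Y-linked Eif2s3y lay at 12.78 to 111.7 on the 6 KO arrays and at 245.1 to 789.8 on the 5 WT arrays, and Xist at 227.5 to 993.3 against 44.92 to 188.1. The part of donor sex in the KO-to-WT differences cannot be told apart from genotype.

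**Figure D5:**
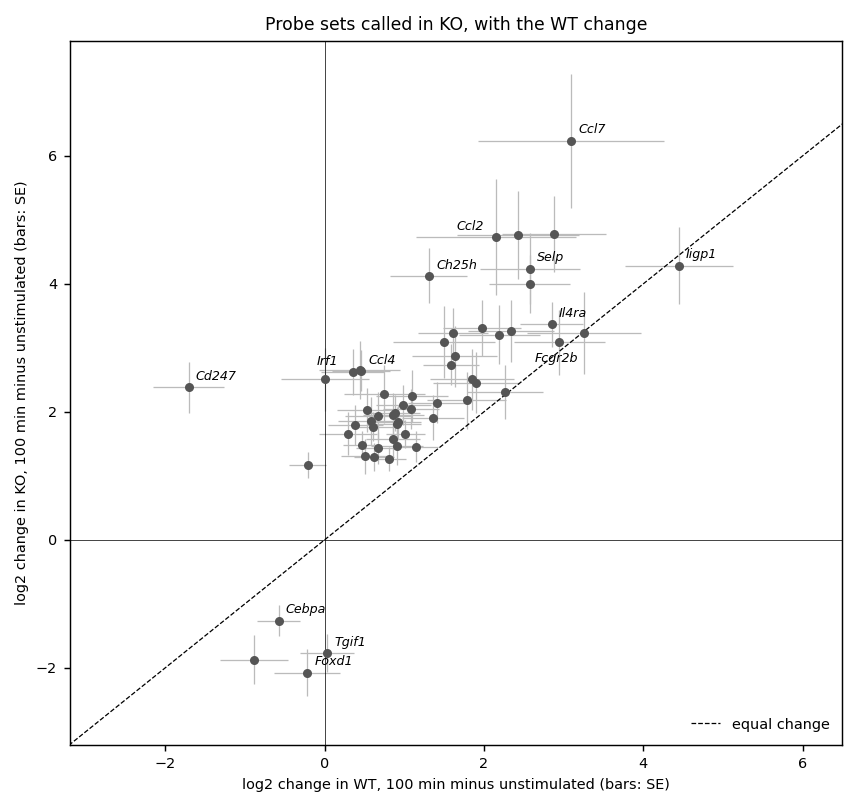
The log2 change at 100 min in KO cells (vertical) against that in WT cells (horizontal) for the 57 probe sets called in KO, with SE bars; the dashed line marks equal changes. Of the 53 that rose, 51 lie above the line, and Iigp1 (4.45 in WT, 4.28 in KO) lies just under it.

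At 400 min, 180 probe sets (1.82%) were called in KO cells against the same unstimulated arrays, 118 of them higher (1.2%). Because both comparisons use the same 3 unstimulated arrays, the values are set side by side only. For the 53 probe sets that rose at 100 min, the median log2 change was 2.28 at 100 min and 2.01 at 400 min, and 23 were higher at the later time. These probe sets were chosen by their change at 100 min, so a smaller value at 400 min is no measure of a decline. Gbp2 had 3.31 and 4.68, Il4ra 3.37 and 4.35, Ccl7 6.24 and 7.04, and Ndrg1 1.98 and 3.37 on its first probe set. Cxcl10 had 3.998 and 3.08, Ch25h 4.13 and 3.25 and Cd247 2.38 and 0.56. Irf1 had about the same value at both, 2.63 and 2.67. Foxd1 had -2.08 at 100 min and -0.28 at 400 min.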

How the data were processed

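Total RNA was measured on 17 arrays. The authors' deposited table holds a linear intensity for each of 12488 probe sets on each array. From the values, the mean after leaving out the lowest and highest 2% was 500.3 to 500.4 on every array, so they had been scaled per array; software and background correction: not given in the sources used here. There are no detection calls, and the number of arrays limits the precision. Array medians differed by 0.401 on the log2 scale, so values were quantile normalized, raised to a minimum, the floor, of 22.01 (10th percentile) and log2 transformed. The 66 controls were left out. Tested were probe sets that passed the 40th percentile of 2 or more arrays: 9871, of which 8730 had a single symbol, for 7063 genes. The platform annotation gave a single symbol to 10855 probe sets, several to 396 and none to 1237. Printed levels are normalized intensities before the floor; changes are log2 differences after it.

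The two-sided test was limma 3.58.1 (R 4.3.3; lmFit, eBayes), 1 mean per group over all 17 arrays, without a replicate block, adjusted by Benjamini-Hochberg over the 9871. It was tested on simulated data. The rule for genes that may be named took in all called probe sets with a single symbol, all tested members of 4 lists (IL-6 signalling, its inhibitors, interferon regulatory factors, GTPases), and in other lists the called members and the 2 largest others. It also took in the 5 smallest p-values of the difference of responses, and the 5 largest rises and falls not called; of members not called, the text names some. Trim30a, Isg15, Rsad2, Usp18 and Rabgap1l were named after their values were seen. Some cell type markers and sex-linked genes, among them Eif2s3y, were also named from outside this rule. The members and lists were chosen with earlier results of these data known. Each gene entered a list with its brightest probe set. Replicate numbers were not taken to pair the samples. Alternatives varied normalization, floor, filter, samples, replicate terms and the estimate of the spread.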

Additional observations from a re-analysis of the deposited data

How the results depend on the processing

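The count of 57 in KO cells moved by more than 1.5 times under 6 settings that change the fit, and without any 1 of 5 KO arrays. It was 0 when only the KO arrays at both times were fitted, 94 with replicate 3 as a batch term, 117 with only replicates 1 and 2, 86 with a trended, robust estimate of the spread and 94 with array weights. With the replicate number as a replicate block it was 86. The numbers were not taken to pair the samples: the correlation of the deviations of KO arrays with the same number was -0.016, 0.056 and 0.22 for numbers 1, 2 and 3, and not every array correlated best with its own number; the block kept 55 of the 57 calls, and Ccr1 and Ugcg lost theirs. It was 57, 55, 64, 50 and 79 on the deposited values, with the floor at the 1st or 20th percentile, without the filter and with a stricter filter. Leaving out 1 of the 17 arrays gave 24 to 79. For the difference of the KO and WT responses, all settings gave 0 except 3 of the fits without 1 array, which ranged over 0 to 3. In none of these settings did a called probe set change sign. Their groups did not overlap, so leaving out arrays, replicate terms, array weights or another estimate of the spread could not have reversed a sign. The unchanged signs are therefore no measure of stability. Without detection calls, dim probe sets such as those of Myc, Foxd1 and Cd247 have a level set partly by the floor, and groups of 2 or 3 arrays limit the rest.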
